A study of Danio rerio with 20 samples.

Results

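Young neurons and growing axons share a small set of widely used marker genes, and 10 of them were followed here in reporter-positive cells of the adult zebrafish spinal cord: tubb5, elavl3, elavl4, gap43, stmn1a, stmn1b, sox11a, sox11b, sox4a and gng3. They were found as the rows of the count table whose symbol, case ignored, equals 1 of these names or a name without its paralog letter. That gave 12 of 32266 gene rows, because sox4a is listed under 2 identifiers and the shortened name SOX4 also covers sox4b. Of the 12 rows, 9 had a count in some library, 8 passed the filter on low counts and were tested, and 3 were at 0 in all 20 libraries.

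All fish were adults of the genotype Tg(olig2:eGFP), a line in which olig2 regulatory sequence drives a green fluorescent protein. The lesion group was taken 7 days after the spinal cord was cut, and the sham group had the same operation with the cord left intact. Pieces of about 0.5 mm from 9 cords per group were dissociated together and live, green cells were sorted, so the 10 libraries of a group may be portions of 1 pool of cells. The p-values below therefore rest on the spread among libraries alone, and that spread may be technical. In the developing cord olig2 is active in progenitors that give rise to motor neurons as well as in the oligodendrocyte lineage, and the labels call the sorted cells oligodendrocyte progenitor cells.

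A new neuron switches on transcription factors of the SoxC class, to which Sox4 and Sox11 belong, then RNA-binding proteins of the Elavl family, which stabilise neuronal messages. It then builds microtubules for its axon from tubulins such as Tubb5, while stathmins bind free tubulin and keep microtubules dynamic, and Gap43 works at the growth cone. In rodents, SoxC factors and stathmin are also expressed by precursors of oligodendrocytes, so the genes differ in how closely they are tied to neurons.

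Library totals ran from 7134670 to 10264810 counts. Lesion libraries held counts for 13562 to 16518 genes and sham libraries for 10328 to 13117, so the groups did not overlap in this measure. The labelled lineage was present: OLIG2 stood at 8302 CPM in sham and 7490 CPM after lesion (CPM, a gene's counts relative to the library total after TMM scaling, which adjusts totals for a few very abundant genes). PDGFRA, a receptor that marks oligodendrocyte progenitors, had 156 counts in 1 sham library and 2 counts in 1 lesion library. The myelin gene plp1b was at 40200 CPM in sham. The library titles place sham libraries in columns 1 to 6 and lesion libraries in columns 7 to 12, so column and operation cannot be told apart.

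Of the 8 tested genes, tubb5 and gng3 rose after lesion, stmn1b fell, and 5 did not pass the test (edgeR quasi-likelihood test, Benjamini-Hochberg adjusted p under 0.05 over 10467 genes). Of all genes tested, 4.34% were called higher and 3.24% lower, 7.58% in either direction. The median log2 fold change of the 8 genes was 0.17, beside 0.03 for all genes tested, with 4 positive and 4 negative values. The genes thus did not move as a block: they ranged from an 8.28-fold rise of tubb5 to a 1.54-fold fall of stmn1b.

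**Figure D1:**
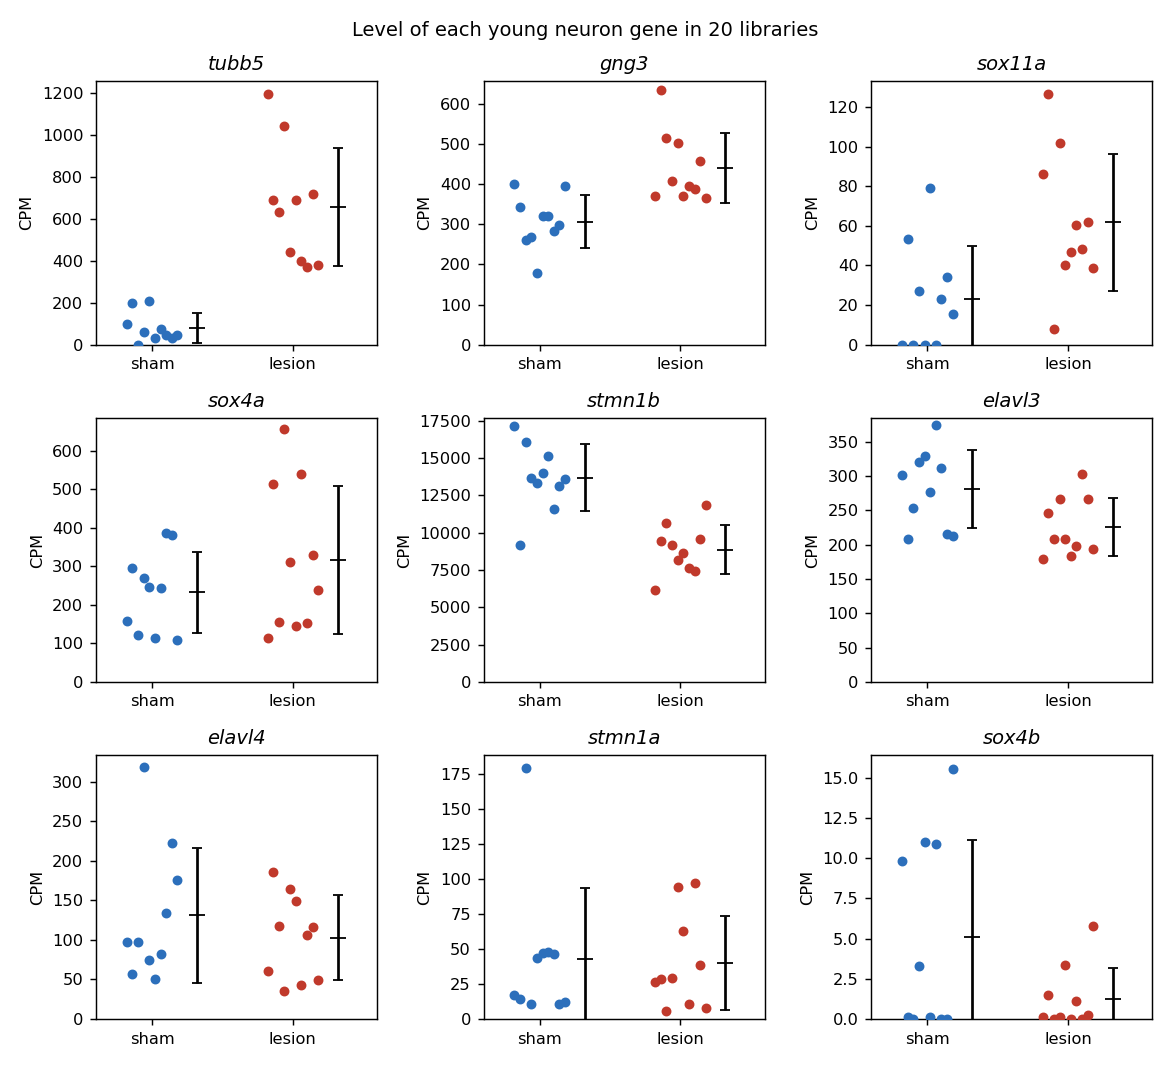
Level of each of the 9 genes with counts (vertical axes, CPM) in the 10 sham (blue) and 10 lesion (red) libraries, 1 point per library, with the mean and SD of each group at its right. For tubb5 all lesion points lie above the highest sham point of 206.3 CPM, while the groups overlap in each of the other panels.

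tubb5 encodes a beta tubulin that is expressed in neural progenitors and young neurons of the zebrafish embryo (ENSDARG00000037997, chr16:10427991-10436718, plus strand, build GRCz10). In sham libraries its lowest, median and highest levels were 0.2434, 52.97 and 206.3 CPM. After lesion they were 368.9, 660.8 and 1196 CPM. Every lesion library lay above every sham library, which 1.45% of the genes tested also showed. The lowest sham library, replicate 3, had 2 tubb5 counts, and the highest lesion library, replicate 1, had 10749.

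The rise of tubb5 was 3.05 ± 0.55 on the log2 scale (SE, 10 libraries per group), with an adjusted p of 4.84e-04 in edgeR's quasi-likelihood test. Without sham replicate 3 it was 2.88. By mean CPM the gene stood at rank 2013 of all genes in sham and at rank 203 after lesion. A fit that also held each library's count of detected genes, a measure in which the groups do not overlap, gave a log2 difference of 2.93 and an edgeR adjusted p of 0.257.

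gng3 encodes a G protein gamma subunit of neurons, and its promoter is used to label differentiating neurons in zebrafish (ENSDARG00000009553, chr21:26660841-26670357, plus strand). Its sham levels had a lowest, median and highest value of 178.2, 308.8 and 400.9 CPM. The lesion levels were 365.0, 402.0 and 633.9 CPM. The groups overlapped: 5 lesion libraries lay above the highest sham library, and 8 sham libraries lay below the lowest lesion library.

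The rise of gng3 was 0.52 ± 0.14 on the log2 scale, or 1.44-fold (edgeR quasi-likelihood adjusted p = 0.0206). It was a weak call. Leaving out lesion replicate 2, 3 or 5 gave edgeR adjusted p-values of 0.0608, 0.0596 and 0.0579. In the libraries of title row B alone the log2 difference was 0.19.

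stmn1b encodes a stathmin, a small protein that binds free tubulin (ENSDARG00000033655, chr16:34569485-34573176, plus strand). It was the most abundant of the genes by far. Its sham levels had a lowest, median and highest value of 9202, 13630 and 17130 CPM, and it took 1.36 ± 0.21% of all counts (SD, n = 10). The lesion levels were 6127, 8901 and 11850 CPM, or 0.859 ± 0.145% of counts. Of the lesion libraries, 6 lay below the lowest sham library, and 8 sham libraries lay above the highest lesion library.

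The difference of stmn1b was -0.63 ± 0.11 on the log2 scale, 1.54-fold lower after lesion (edgeR quasi-likelihood adjusted p = 4.43e-04). In both groups the gene was at rank 5 of all genes by mean CPM, so it remained one of the leading transcripts of the sorted cells. The lowest sham library was replicate 2, and without it the difference was -0.69. In row B alone the log2 difference was -0.63 with an edgeR adjusted p of 0.231, and with detected genes as a covariate it was -0.47 with 0.564.

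The summed level of oligodendrocyte lineage markers was also lower after lesion. It ran from 73770 to 119700 CPM in sham and from 48800 to 100500 CPM after lesion. Sham replicate 2 and lesion replicate 1 were lowest in their groups for both this sum and stmn1b. The upper ends were not shared: the sum was highest in sham replicate 3 and lesion replicate 3, stmn1b in sham replicate 1 and lesion replicate 10. The libraries were set side by side after the values were seen. Of 15 tested lineage genes, 3 were lower, mbpa and cldnk among them, and 1 was higher (mbpb), beside 3.24% and 4.34% of all genes, with a median log2 fold change of -0.33. Their part in the fall of stmn1b was not tested. In bulk libraries, fewer cells of a type and less RNA per cell cannot be told apart.

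The Elavl genes, which encode neuronal RNA-binding proteins, both had lower lesion means and did not pass the test. elavl3 (ENSDARG00000014420, chr3:48848938-48865522, minus strand) had a lowest, median and highest level of 208.1, 289.1 and 374.9 CPM in sham. After lesion these were 179.5, 208.2 and 302.7 CPM. The groups overlapped in part: 5 lesion libraries lay below the lowest sham library, and 4 sham libraries lay above the highest lesion library. The log2 difference was -0.32 ± 0.14 (edgeR quasi-likelihood adjusted p = 0.245).

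elavl4 (ENSDARG00000045639, chr8:15968442-16080266, plus strand) varied more between libraries than between groups. In sham its lowest, median and highest levels were 50.29, 96.84 and 319.3 CPM, and after lesion 35.86, 111.5 and 185.7 CPM. Medians and means differed in direction, with means of 130.9 CPM in sham and 102.8 CPM after lesion, and the highest value was that of sham replicate 4. The log2 difference was -0.35 ± 0.36 (edgeR quasi-likelihood adjusted p = 0.82).

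Of the SoxC transcription factors, sox11a and sox4a had higher lesion means and sox4b a lower one, and none was called. sox11a (ENSDARG00000077811, chr17:35930939-35934236, minus strand) had a lowest, median and highest level of 0, 19.09 and 79.23 CPM in sham. After lesion these were 7.702, 54.32 and 126.6 CPM. It had a count in all 10 lesion libraries and in 6 of 10 sham libraries. The log2 difference was 1.41 ± 0.97 (edgeR quasi-likelihood adjusted p = 0.615), while limma-voom gave 4.23 with an adjusted p of 0.0241.

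sox4a (ENSDARG00000004588, chr19:29201926-29205186, minus strand) was counted in all 20 libraries. Its lowest, median and highest levels were 108.8, 243.9 and 386.1 CPM in sham and 113.7, 274.4 and 656.9 CPM after lesion. Only the upper end differed, with 3 lesion libraries above the highest sham library. The log2 difference was 0.44 ± 0.33 (edgeR quasi-likelihood adjusted p = 0.656).

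Within each group the median of sox4a also differed along the title columns, although the ranges overlapped. Lesion libraries of columns 10 to 12 had a median of 421.1 CPM (n = 6) and those of columns 7 to 9 a median of 149.1 CPM (n = 4). Sham libraries of columns 1 to 3 had a median of 325.0 CPM (n = 4) and those of columns 4 to 6 a median of 139.5 CPM (n = 6). The ranges, in the same order, were 154.0 to 656.9 and 113.7 to 310.3 CPM after lesion. In sham they were 242.8 to 386.1 and 108.8 to 294.9 CPM. The stmn1a medians of the same columns were 19.89 and 78.37 CPM after lesion and 28.71 and 30.39 CPM in sham. The split was made after the values were seen and was not tested.

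The paralog sox4b (ENSDARG00000098834, chr16:68069-69930, plus strand) was low and uneven, with 99 counts over 7 lesion libraries and 399 over 7 sham libraries. Sham replicates 1, 4, 5, 7 and 10 had 74, 34, 89, 91 and 109 counts, and the other sham libraries 0 or 1. Of the sham libraries, 4 lay above the highest lesion library. The gene did not pass the filter. In the fit without a filter its log2 difference was -2.05 (edgeR adjusted p = 0.46).

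stmn1a, the second stathmin 1 paralog (ENSDARG00000004169, chr19:17303653-17306398, minus strand), had a lowest, median and highest level of 10.82, 30.39 and 179.2 CPM in sham. After lesion these were 5.934, 29.17 and 97.5 CPM. The groups overlapped, and sham replicate 3 held the highest value. The other 9 sham libraries lay between 10.82 and 47.99 CPM, with 3 lesion libraries above that range and 2 below it. The log2 difference was -0.09 ± 0.59 (edgeR quasi-likelihood adjusted p = 0.987), and its sign changed when single libraries were left out.

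The libraries with the 4 highest stmn1a levels also held some transcripts of dividing cells. mki67, a gene expressed in cycling cells, was counted in lesion replicates 1, 5, 6 and 8, while all sham libraries together held 1 count of it. Within the lesion group these 4 are the libraries of title columns 7 to 9, so mki67 counts and title column cannot be told apart. The stmn1a levels of these 4 lesion libraries were 26.71, 94.0, 62.74 and 97.5 CPM, and the last 3 were the highest of the lesion group. In sham replicate 3, where stmn1a was at 179.2 CPM, TOP2A had 429 counts, beside at most 6 in any other sham library. mki67 and aurka, another gene of dividing cells, had 0 counts in that library. The relation did not hold throughout: lesion replicate 1, with 187 mki67 counts, lay below the lesion median of 29.17 CPM for stmn1a. Sham replicates 7, 6 and 8, next highest in sham at 47.99, 47.42 and 46.46 CPM, had 1, 1 and 0 counts of TOP2A. In sham replicate 2 the proliferation genes summed to 426.5 CPM, with 1181 counts of MCM2, while stmn1a was at 14.24 CPM. These genes and libraries were chosen after the values were seen.

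The 2 stathmin 1 paralogs showed little relation over the libraries. After group means were removed, the Pearson correlation of their log2 CPM was -0.11 (n = 20, not tested). Sham replicate 3, highest for stmn1a, was also among the highest for stmn1b, at 16110 CPM. The ratio of stmn1b to stmn1a counts had a median of 480 in sham (range 89.9 to 1260) and of 280 after lesion (range 76 to 1800), so stmn1b made up nearly all stathmin 1 counts in either group.

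**Figure D2:**
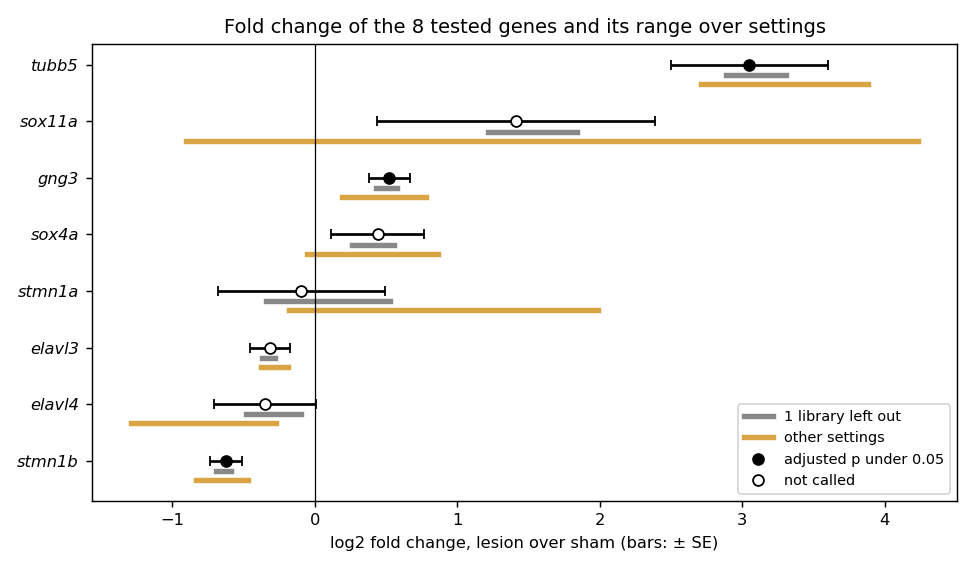
Log2 fold change of the 8 tested genes, lesion over sham (horizontal axis; bars are ± SE), with the range over fits that leave out 1 library (grey) and over the other settings (orange). Filled points mark an adjusted p under 0.05: tubb5 at 3.05, gng3 at 0.52 and stmn1b at -0.63.

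The 3 rows at 0 cannot be read as absent expression. Of the exon bases of sox11b (ENSDARG00000095743, chr20:30129749-30132447), 99.4% also belong to other annotated genes, and the counting header shows no option that would assign such reads. The second sox4a row (ENSDARG00000096389, chr19:29149825-29204243) shares 100% of its exon bases, 481 of 597 of them with the sox4a row above. gap43 (ENSDARG00000099744) lies on an unplaced scaffold, and none of the 565 rows on such scaffolds had a count in any library. Sharing also touches sox11a, with 53.0% of its exon bases in another gene, and sox4a with 15.6%, so their counts may be too low in both groups.

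The sham libraries alone separated the genes by how much of their message is present without a lesion. Genes counted in all 10 sham libraries with a median of at least 100 CPM were called abundant; these were stmn1b, gng3, elavl3 and sox4a. elavl4, tubb5, stmn1a, sox11a and sox4b were intermediate. With a limit of 50 CPM elavl4 and tubb5 would join the abundant genes, and a limit of 200 CPM changed nothing. The class uses the sham values of the lesion contrast, so the 2 were not set against each other by a test.

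Per kilobase of exon, stmn1b had a mean level of 8116 CPM in sham, rank 5 of all genes. gng3 followed with 243.7, elavl3 with 82.44, sox4a with 71.14, stmn1a with 39.28, tubb5 with 34.11, elavl4 with 19.67 and sox11a with 7.041 CPM per kilobase. In this order stmn1a, tubb5 and elavl4 cannot be ranked against each other beyond their spread, with SDs of 46.34, 30.13 and 12.83. After lesion tubb5, at 282.6 CPM per kilobase, stood behind stmn1b with 5258 and gng3 with 350.1.

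Spread between libraries followed the division by sham level only in part. The coefficients of variation of stmn1b, elavl3 and gng3 lay between 16.3% and 21.5% in either group. Those of tubb5, elavl4, sox11a and stmn1a lay between 43.1% and 118%, and sox4a, although abundant, had 45.1% in sham and 61.1% after lesion. sox4b, at 0 or 1 count in many libraries, had 119% in sham and 158% after lesion. stmn1b, elavl3 and gng3 were thus present at similar levels in every library of a group, while the other genes varied more between libraries.

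Pan-neuronal genes were unevenly spread over the sham libraries. SNAP25 (ENSDARG00000020609), a synaptic vesicle fusion protein of neurons, had 0 and 1 counts in sham replicates 1 and 3 and between 687 and 2515 counts in the other 8 sham libraries. Other genes of the pan-neuronal list were counted there: UCHL1 had 742 and 1257 counts, STMN4 (ENSDARG00000030106) 1906 and 3300, and vamp2 327 and 55. In these 2 libraries stmn1b was at 17130 and 16110 CPM, the highest values of the series. gng3 was at 400.9 and 260.7 CPM, elavl3 at 301.7 and 254.0 CPM and sox4a at 158.7 and 120.3 CPM, all within the sham range.

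Some of these values lay below the sham medians, sox4a in both libraries and gng3 and elavl3 in replicate 3. elavl4 was at 96.92 and 96.76 CPM, close to its sham median. sox11a was at 0 in both, tubb5 was at 100.4 and 0.2434 CPM, and stmn1a was at 17.02 and 179.2 CPM. SNAP25 and these libraries were singled out after the values were seen. stmn1b, gng3, elavl3, sox4a and elavl4 had counts in all 10 sham libraries, so also in these 2. For the 4 abundant genes the class itself requires this, and no conclusion is drawn from it. Sham replicates 1 and 3 also held the fewest detected genes of all 20 libraries, 10723 and 10328. They had counts for 9 and 11 pan-neuronal rows, fewer than any other library. The part of this low detection in the missing SNAP25 counts was not tested.

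The wider set of pan-neuronal genes gave the setting for the neuronal markers. Of its 33 rows, 32 had a count, 21 were tested and none was called in either direction by edgeR's quasi-likelihood test, beside 7.58% of all genes. At an unadjusted p under 0.05, 1 of the 21 passed, limma-voom called 1 higher and 1 lower, and DESeq2 called 1 lower. The summed level ran from 421.6 to 2036 CPM in sham (median 1349) and from 703.8 to 2445 CPM after lesion (median 1251). In this sum the groups overlapped almost completely, unlike those of tubb5. Detection differed more, with counts for 20 to 31 of the rows in lesion libraries and 9 to 24 in sham libraries. Without a filter 2 rows were called higher by edgeR, beside 11.6% of all genes in that fit.

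STMN3, a neuronal relative of stathmin, had the smallest p of this list, with 21.41 CPM in sham and 2.491 CPM after lesion (edgeR adjusted p = 0.116). SNAP25 had 149.3 ± 106.3 CPM in sham and 198.2 ± 94.15 CPM after lesion (SD, n = 10; edgeR adjusted p = 0.936). STMN4 (ENSDARG00000043932) had 13.48 and 55.87 CPM (edgeR adjusted p = 0.506), and SNAP91, which works in synaptic vesicle recycling, had 8.546 and 22.84 CPM (0.674). Spread of this size leaves room for changes that the test would miss.

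Genes of neuron identity, for transmitters and motor neuron fate, were nearly silent in sham libraries. Of 23 rows 19 had a count, none passed the filter, and 12 were at 0 in all sham libraries, 8 of them with counts after lesion. Lesion libraries held counts for more genes of any kind, 13562 to 16518 against 10328 to 13117 in sham. By mean sham CPM, genes at 0 in sham began at rank 20595, while 23989 genes had a count in some library. Genes of other kinds were thus also at 0 in sham and counted after lesion. They were a smaller share of all genes with a count than the 8 rows were of the 19. The list was chosen with earlier results known and the shares were not tested, so the 8 rows are a description only. Their summed level was at most 1.859 CPM in any sham library and had a median of 44.68 CPM after lesion, with a range of 0 to 491.2 CPM. Without a filter 10 rows were called higher by edgeR, beside 11.6% of all genes in that fit.

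The lesion counts of these genes came from some libraries only. MNX1, a homeobox gene of motor neurons, had 716, 292, 259, 312 and 97 counts in lesion replicates 2, 3, 4, 9 and 10 and 0 in the other 15 libraries. All 5 lie in title columns 10 to 12, where lesion replicate 7 is the only library without MNX1, so a part of title column cannot be told apart. ISL1, a LIM homeobox gene of motor neurons, had 93 to 1334 counts in 6 lesion libraries, the most in replicate 2, and 0 in every sham library. SLC18A3, the vesicular acetylcholine transporter, had counts in the same 5 libraries as MNX1, and CHAT, which makes acetylcholine, in 3 of them. Genes of inhibitory transmission, GAD1, GAD2, SLC32A1 and SLC6A5, had at most 4 counts in any group. These genes were named after their values were seen.

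Neurogenesis transcription factors showed a similar split. Of 27 rows, 26 had a count and 6 were tested. None of the 6 was called by edgeR's quasi-likelihood test, beside 7.58% of all genes. Of the 6, 1 passed at an unadjusted p under 0.05, DESeq2 called 0 and limma-voom 1 higher. ascl1a, which acts in neural progenitors, had the smallest p, with 25.16 CPM in sham and 93.78 CPM after lesion (edgeR adjusted p = 0.229). Among the rows below the filter, 9 were at 0 in sham and counted after lesion. This too was a larger share of the 26 rows with a count than that of all genes, and it was not tested. NEUROD1, which drives neuronal differentiation, had 109 to 1471 counts in 7 lesion libraries, and nhlh2, a factor of young neurons, 131 to 1069 counts in 6, again with the most in replicate 2. Without a filter 11 rows were called higher by edgeR, beside 11.6% of all genes in that fit. Among the 11 was NEUROD2 with 50 counts in 1 library, so that call can rest on a single library.

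In all 10 lesion libraries tubb5 lay above the highest sham level, so also in those almost without transmitter and motor neuron identity genes. Lesion replicates 5, 6 and 8 had summed identity levels of 0.496, 0.554 and 0 CPM, and tubb5 stood at 441.1, 690.4 and 368.9 CPM there, above the highest sham library. The same 3 libraries, singled out after the values were seen, held pan-neuronal genes at summed levels of 1992, 1415 and 1086 CPM. They were thus not without neuronal transcripts, whose part in the level of tubb5 was not tested. Without the 5 lesion libraries that had MNX1 counts, a setting chosen after the data were seen, the log2 difference of tubb5 was 2.99 (edgeR adjusted p = 0.0129). With no overlap between its groups, tubb5 could hardly have changed direction in this setting, and no conclusion is drawn from it. The same setting gave -0.83 for stmn1b (edgeR adjusted p = 2.16e-04) and 0.42 for gng3, which was no longer called (0.345).

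**Figure D3:**
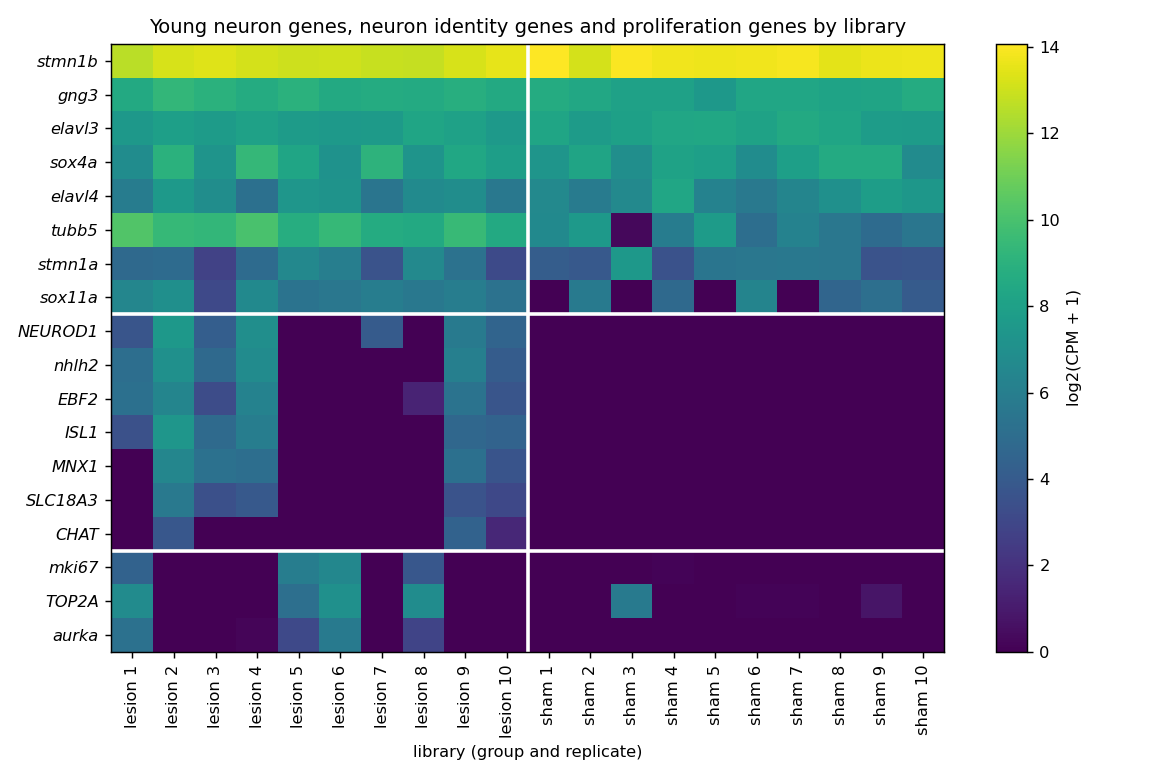
Levels in each of the 20 libraries (columns), as log2 of CPM plus 1 on the colour scale. The blocks hold the 8 tested genes (top), 7 neurogenesis and neuron identity genes (middle) and 3 proliferation genes (bottom). In the middle block NEUROD1, nhlh2 and EBF2 are neurogenesis transcription factors, and ISL1, MNX1, SLC18A3 and CHAT are identity genes. tubb5 is high in all 10 lesion libraries. MNX1 has counts in 5 of these libraries and mki67 in 4 others.

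Radial glia and ependymal genes also moved with the lesion. Of 11 tested, 4 were higher (GFAP, nes, S100B and FOXJ1) and 3 lower (SLC1A3 and both GLUL rows), beside 4.34% and 3.24% of all genes; the summed level ran from 7113 to 11550 CPM in sham and from 5070 to 9421 CPM after lesion. Of the microglia list both tested rows were higher, among them apoeb, and the summed level lay between 329.2 and 1378 CPM in sham and between 5255 and 9623 CPM after lesion. Its defining genes stayed near 0: csf1ra had 10 lesion counts, and c1qa, c1qb, LCP1 and marco had none. The part of these cell types in the change of tubb5 was not tested.

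Genes of axon growth and the neuronal cytoskeleton rose more often than they fell. Of 43 rows with a count 39 were tested, 8 were higher and 2 lower, and 29 had a positive log2 fold change, with a median of 0.79. Beside this, 4.34% of all genes were higher and 3.24% lower. The summed level ran from 5288 to 11350 CPM in sham and from 9989 to 14470 CPM after lesion. The highest sham library was replicate 2, the only one inside the lesion range. Over the 4 lesion and 4 sham libraries of row B none of the 39 was called by edgeR in either direction, and with detected genes as a covariate 1 was called higher.

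Of the genes called higher, 3 were tubulins, while the list's TUBB2B (ENSDARG00000039522) and tuba1c were not called. tubb2b (ENSDARG00000098591), a beta tubulin of neurons, had a lowest, median and highest level of 134.6, 257.9 and 348.6 CPM in sham and of 393.5, 597.4 and 820.4 CPM after lesion, with no overlap. Its log2 difference was 1.29 (edgeR quasi-likelihood adjusted p = 1.57e-05). The alpha tubulin tuba1b had 65.05 CPM in sham and 178.2 CPM after lesion (1.45, 1.16e-04), also with no overlap, and TUBA1A had 291.5 and 529.8 CPM (0.86, 6.5e-04). tubb2b belongs to the same protein family as tubb5 and moved the same way by a smaller amount.

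Of the genes called higher, 4 encode proteins that bind or regulate actin, while CFL1, marcksl1a and the MARCKS row ENSDARG00000004049 were not called. tmsb, a thymosin beta that binds actin monomers, had 1.586 CPM in sham, with counts in 3 libraries, and 76.1 CPM after lesion, a log2 difference of 5.58 (edgeR adjusted p = 0.00242). PFN2, a profilin, went from 338.6 to 680.5 CPM (1.01, 1.45e-04). The membrane-bound actin regulators marcksl1b and MARCKS (ENSDARG00000008803) went from 946.1 to 2724 CPM (1.53, 0.016) and from 84.06 to 214 CPM (1.35, 0.00686). The injury-induced transcription factor ATF3 had 589 CPM in sham and 1614 CPM after lesion (1.45, 0.0269).

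The 2 genes called lower were weak calls: with 1 library left out the list kept 2 lower calls in 6 of 20 fits, and it had 0 without sham replicate 8 and in row A alone. dclk2a, a doublecortin-like kinase, had 114.9 CPM in sham and 52.91 CPM after lesion, a log2 difference of -1.12 (edgeR adjusted p = 0.0215). DPYSL5 (ENSDARG00000059311), a collapsin response mediator, had 74.36 and 30.67 CPM (-1.28, 0.0421). Other growth genes, named after their values were seen, did not pass the test: basp1, a membrane protein of growth cones, had 593 and 729.8 CPM (0.30, 0.211), and JUN had 1304 and 1642 CPM (0.33, 0.216).

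**Figure D4:**
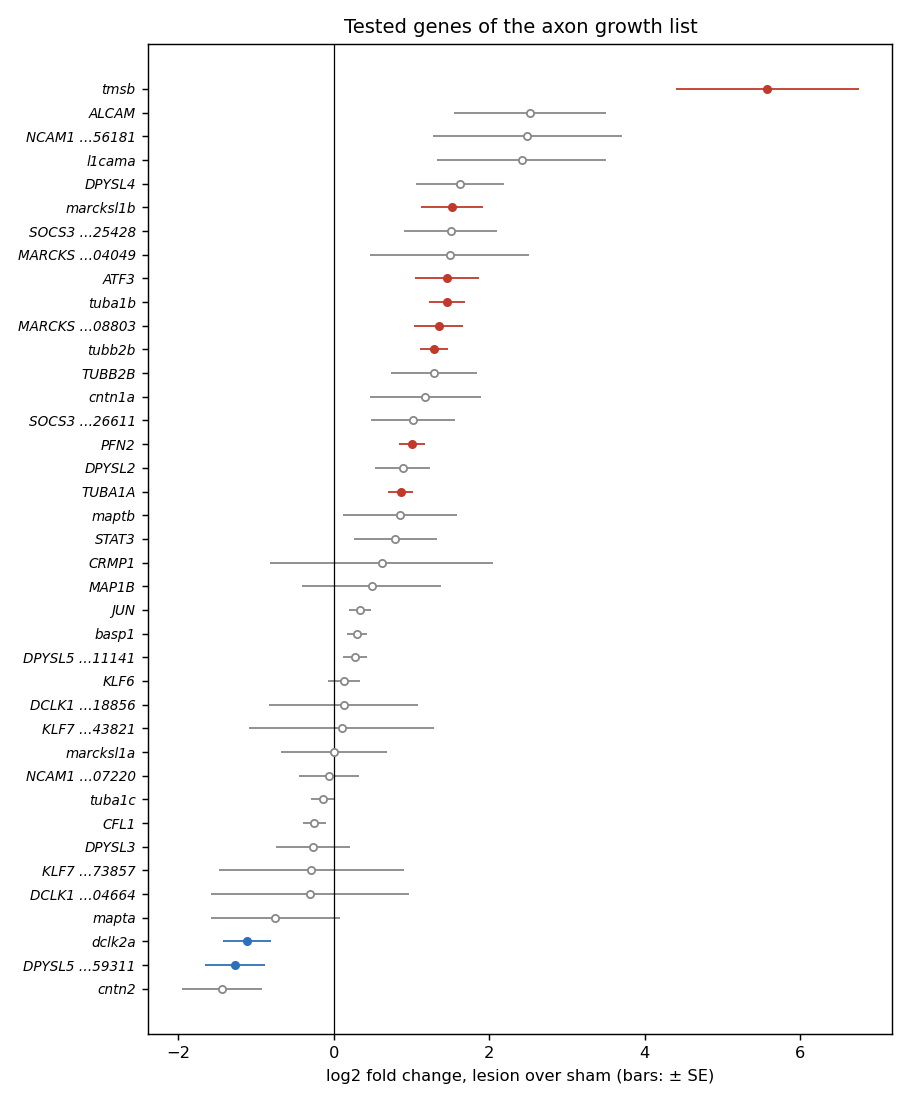
Log2 fold change, lesion over sham (horizontal axis; bars are ± SE), of the 39 tested genes of the axon growth list, ordered by size; filled points are called, red higher and blue lower. tmsb lies farthest right at 5.58, and dclk2a and DPYSL5 are the genes called lower.

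Relatives of the members within their protein families were read next. Of 22 rows 15 were tested, 2 were higher and none lower by edgeR's quasi-likelihood test, beside 4.34% and 3.24% of all genes, with a median log2 fold change of 0.48; at an unadjusted p under 0.05, 5 of the 15 passed, and both DESeq2 and limma-voom called 1 lower. Beside tubb2b, the called gene was GNG5, a widely expressed G protein gamma subunit, with 186.6 CPM in sham and 264.7 CPM after lesion (0.50, edgeR adjusted p = 0.0373). The broadly expressed beta tubulin tubb4b had 3090 and 3805 CPM (0.30, 0.0642). Other stathmins did not pass the test, with STMN4 (ENSDARG00000030106) at 474.4 and 393 CPM and STMN2 (ENSDARG00000033234) at 57.99 and 91.41 CPM.

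The balance between members shifted with the lesion as their levels did. The ratio of tubb5 to gng3 counts had a median of 0.194 in sham (range 0.000934 to 1.16) and of 1.16 after lesion (range 0.88 to 3.23). The ratio of elavl3 to gng3 counts, both abundant in sham, had a median of 0.919 in sham (range 0.537 to 1.85) and of 0.498 after lesion (range 0.39 to 0.782). Both ratios overlapped between the groups.

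After the group means were removed, the 8 tested genes did not rise and fall together over the 20 libraries. The 28 pairwise Pearson correlations of log2 CPM ran from -0.50 (sox11a with stmn1b) to 0.37 (elavl3 with stmn1a), with a median of 0.02 and 16 positive values. These are descriptions, with no test, over libraries that may share a pool within each group and that differ in depth and genes detected.

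The genes most like each member in the same measure (n = 20) were therefore not other members. For tubb5 they were AKR1A1 with r = 0.94 and FAM50A and the unnamed ENSDARG00000098850 with 0.92 each. For stmn1b they were slmapb and tppp2 with 0.88 each and ADA2 with 0.87. For sox11a they were TSHZ3 and NSF with 0.91 each and SALL1 with 0.90, and for stmn1a ERBB3 with 0.80, HMGN2 with 0.73 and RRM2 with 0.72. tubb5 stood at 0.2434 CPM in sham replicate 3 and at 29.68 CPM in the next lowest library. sox11a had a count in 6 of 10 sham libraries. On the log2 scale the correlations of these genes can therefore rest on few libraries.

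The remaining members had lower best values. sox4a came closest to NCAM1 (ENSDARG00000056181) with 0.75, gpsm1a with 0.74 and SIRT6 with 0.72, and elavl3 to senp2 with 0.75, tent5bb with 0.71 and SGSH with 0.70. elavl4 came closest to ube2g1b with 0.77, PHKA2 with 0.76 and ARL6IP1 with 0.75. gng3 came closest to si:dkey-253d23.4 with 0.72 and to VPS26B and pold4 with 0.71 each. The largest of many correlations is high by selection, and these values carry no test.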

How the data were processed

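RNA was sequenced from sorted reporter-positive cells in 10 lesion and 10 sham libraries, and the deposited table gives raw read counts of each gene and its exon length. The submitters' processing notes name bcl2fastq 2.19.1, the aligner GSNAP, the build GRCz10 and featureCounts 1.6.2. Genes came from Ensembl release 87, per the file headers, a mapping quality of at least 1 was required and strand was ignored (setting 0), so reads of a gene and an antisense partner cannot be told apart, and near-identical copies may share reads. Of 32358 rows, 92 spike-in rows with 2 counts in all were left out. The deposited length in bases served for levels per kilobase. The sources used here do not give the library kit, cell number or molecular identifiers.

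The members, gene lists and tests were chosen with earlier results of these data known. Lists held 233 symbols in 12 lists; 148 matched by symbol, 72 without the paralog letter and 2 by a synonym, and 11 had no match. Symbols are printed as the name table writes them, which covers 26433 of 32266 genes. Paralogs with a shared symbol were told apart by their neighbouring genes in RefSeq assembly GRCz12tu, used for names and order only: 5 of 6 neighbours matched for sox11a, 6 of 6 for sox11b, sox4a, sox4b and stmn1b, and 2 of 6 for stmn1a.

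The test was edgeR 4.0.16 in R 4.3.3 (filterByExpr, TMM, quasi-likelihood F test, two-sided, Benjamini-Hochberg over 10467 genes, threshold 0.05), with the group as the only term. Standard errors were taken as |log2 fold change| over the root of the F statistic. Alternatives were DESeq2 1.42.0, limma-voom 3.58.1, DESeq2 size factors, no filter (23989 genes), each library left out, rows of the library titles, row or detected genes as a covariate, and sets of lesion libraries left out. Named genes were all members, their relatives that passed the filter, up to 4 genes of each list with the smallest p, the called genes of the neuronal and axon growth lists, and the 3 most correlated genes of each member (log2 CPM, prior count 2). The text names part of them, and 1 gene is not reported here. Other genes are said to be chosen after their values were seen. On simulated counts with 9661 genes tested, the fit found 9 of 67 genes with a 2-fold change, 29 of 67 with a 4-fold change and 46 of 66 with a 16-fold change, and made 0 false calls. Each unchanged gene was simulated with the same mean in both groups, without the real difference in genes detected. The simulation therefore cannot speak to false calls that arise from that difference.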

Additional observations from a re-analysis of the deposited data

Results flagged for a closer look

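Of 18 groups of 10 libraries, the 9 genes with counts in lesion and in sham, 1 held a library far from the rest. stmn1a stood at 179.2 CPM in sham replicate 3, while the other 9 sham libraries lay between 10.82 and 47.99 CPM. The gap to the next library was 0.779 of the whole range, above the critical ratio of 0.466 for 10 samples. Chance alone flags about 1 in 20 such groups when values are normally spread, and 1 flag among 18 groups is close to that rate. The rule was applied to untransformed CPM, whose skew can raise the rate. Without this library the log2 difference of stmn1a between lesion and sham was 0.53, in place of -0.09, and it was not called in either case.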

How the results depend on the processing

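tubb5 kept its direction and its call when any 1 library was left out (2.88 to 3.30) and in 9 of 10 other settings (2.71 to 3.88). With no overlap between its groups, fits that only leave out libraries could hardly change its direction. With detected genes as a covariate the log2 difference of tubb5 was 2.93 and no longer called. stmn1b kept its call with any 1 library left out (-0.69 to -0.59) and lost it in row B only (-0.63) and with detected genes as a covariate (-0.47). gng3 lay between 0.43 and 0.57 over the fits that omit 1 library, and was no longer called in row B only (0.19), with detected genes as a covariate (0.41), without lesion replicates 2, 9 and 10 together (0.45) or without the lesion libraries with MNX1 counts (0.42). sox11a was called with limma-voom (4.23) and reversed with detected genes as a covariate (-0.90), as did sox4a (-0.054). stmn1a, not called anywhere, lay between -0.34 and 0.53 over those fits, and turned positive with limma-voom (0.061), in row B only (0.26), with detected genes as a covariate (1.99), without lesion replicates 2, 9 and 10 together (0.13) and without the MNX1 libraries (0.47). elavl3 and elavl4 were negative and not called in every setting run. The cause of these changes was not tested.

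Members called higher numbered 1 to 2 with 1 library left out, 1 in row B only, 0 with detected genes as a covariate, and 1 without the MNX1 libraries or without lesion replicates 2, 9 and 10 together; members called lower numbered 0 in row B only and with the covariate. Genes called higher and lower, 454 and 339 in the reported fit, were 2780 and 758 with no filter, 1380 higher with limma-voom, 562 lower with the DESeq2 test, 201 lower in row A only, 207 and 40 in row B only, 140 and 36 with detected genes as a covariate, and 274 and 181 without the MNX1 libraries. Rows A and B alone hold fewer libraries.

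Of the lists, axon growth had 14 higher and 1 lower with limma-voom, 0 lower in row A only, 0 and 0 in row B only, 1 and 0 with the covariate, 1 lower without lesion replicates 2, 9 and 10 together, 0 lower without the MNX1 libraries, and 0 to 2 lower with 1 library left out. Pan-neuronal genes had 2 higher with no filter, 1 lower with the DESeq2 test, 1 higher and 1 lower with limma-voom, and 0 to 1 lower with 1 library left out. Neurogenesis factors had 11 higher with no filter, 1 with limma-voom and 0 to 1 with 1 library left out, and identity genes 10 higher with no filter. Relatives of the members had 1 higher with DESeq2 size factors, 5 with no filter, 4 with limma-voom, 0 in row B only, 1 with the covariate and 1 without lesion replicates 2, 9 and 10 together; 1 was lower with the DESeq2 test and with limma-voom, and with 1 library left out 1 to 4 were higher and 0 to 1 lower.

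No paired analysis was possible because the labels give no replicate numbers that lesion and sham libraries share; numbers were given in accession order. In simulated counts most 2-fold changes were missed, so failing the test does not show that a member was unchanged.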
